A study of Homo sapiens with 24 samples.

Results

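Carcinoma cells can be placed between an epithelial and a mesenchymal state by a small set of marker genes, and 9 of these are described here across all 24 libraries of the series. They were CDH1, EPCAM and CDH2, which encode cell adhesion molecules, VIM, FN1 and TGFBI, which encode a cytoskeletal and 2 matrix proteins, and ZEB1, SNAI1 and SNAI2, which encode transcription factors. The genes were found by name among the 58735 genes of the deposited count table, where each name had 1 row. Both OE33 and SK-GT-4 are established cell lines of human esophageal adenocarcinoma. From each line, a clone with intact cGAS (Cas9, which carries the CRISPR vector without a guide) and a clone in which CRISPR-Cas9 had disrupted the DNA sensor cGAS (cGAS KO) were sequenced. Each clone received either DMSO or MPS1i, which was 0.5 μM reversine, for 48 hours. Reversine blocks MPS1, a kinase of the spindle checkpoint. This gave 8 groups of 3 libraries, 1 from each of batches 1 to 3. The labels name no clones, so each genotype of a line was taken to be 1 clone. A difference between clones and an effect of losing cGAS cannot be told apart here, and the p-values measure only the spread between batches of the same clone, which may be technical.

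In epithelial tissue, E-cadherin (CDH1) and EPCAM hold neighbouring cells together. During an epithelial-mesenchymal transition, ZEB1, SNAI1 and SNAI2 bind E-box sequences and repress CDH1, while N-cadherin (CDH2), the intermediate filament vimentin (VIM) and matrix proteins such as fibronectin (FN1) and the TGF-beta induced protein TGFBI become more abundant. Carcinomas often show states between these poles, in which markers of both kinds are expressed together.

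Total counts per library were between 15561268 and 25284177. CGAS, the targeted gene, was measured in CPM, the read count scaled to a common library size with TMM factors over all 24 libraries. It was at 29.5 CPM or more in every OE33 Cas9 library and at 2.74 CPM or less in every OE33 cGAS KO library but 1. The batch 2 library labelled OE33 cGAS KO under DMSO stood apart with 15.3 CPM. It was kept, and TGFBI and the list counts of OE33 are also given without it. Other results that use it are given with it only. In SK-GT-4, CGAS was between 15.2 and 26.1 CPM in Cas9 and between 2.24 and 5.81 CPM in cGAS KO. Of 9 markers of columnar epithelium or adenocarcinoma, 6 reached a mean of 1 CPM in every clone, with keratins KRT8, KRT18, KRT19 and KRT7 as the most abundant, and CDH17 and VIL1 had 10 counts or fewer in every library. The summed level of this list was between 17999 and 21937 CPM in OE33 Cas9, between 17893 and 25007 CPM in OE33 cGAS KO, between 5613 and 12044 CPM in SK-GT-4 Cas9 and between 12633 and 23016 CPM in SK-GT-4 cGAS KO. Markers of fibroblasts summed to at most 7.01 CPM in OE33 and to between 4.19 and 82.3 CPM in SK-GT-4, in the latter mainly as COL1A1, with DCN at 1 count or fewer in every library. Markers of squamous epithelium summed to at most 6.60 CPM in OE33 and to between 31.7 and 147 CPM in SK-GT-4, mainly as TP63, with KRT5 at 9 counts or fewer in every library. Leukocyte markers summed to at most 2.73 CPM, and endothelial markers to at most 0.361 CPM in OE33 and 19.4 CPM in SK-GT-4. In bulk RNA, fewer cells of a type and less RNA per cell cannot be told apart.

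The first comparison asks how the 2 cell lines differed in these genes. In Cas9 cells under DMSO, OE33 had the higher levels of CDH1 and EPCAM, and SK-GT-4 had the higher levels of CDH2, VIM and ZEB1. CDH1 (chr16:68737225-68835548, GRCh38, as for all positions below) was measured at 356, 399 and 688 CPM in OE33 Cas9 DMSO cells in batches 1 to 3, and at 3.79, 14.3 and 9.66 CPM in SK-GT-4 Cas9 DMSO cells. The lowest OE33 library was thus above every SK-GT-4 library, with means of 481 ± 180 and 9.24 ± 5.25 CPM (SD, n = 3), a 52.1-fold ratio. EPCAM (chr2:47345158-47387601), an adhesion molecule of epithelial cells, was at 587, 636 and 910 CPM in OE33 and at 48.1, 47.3 and 45.1 CPM in SK-GT-4, 15.2-fold apart in the means. The log2 difference between the lines was 5.71 ± 0.82 (SE; quasi-likelihood test of edgeR, with p-values adjusted over all genes after Benjamini and Hochberg, adjusted p = 5.8e-06) for CDH1 and 3.92 ± 0.36 (adjusted p = 7.9e-09) for EPCAM.

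CDH2 (chr18:27950966-28177446, minus strand), the neural cadherin that mesenchymal cells carry, had 0 counts in 10 of the 12 OE33 libraries and 1 count in each of the other two. Those 2 counts over the summed depth of the line amount to 0.00827 CPM, with an exact 95% Poisson interval of 0.0010 to 0.0299 CPM that covers counting error only. In SK-GT-4 Cas9 DMSO cells, CDH2 was at 43.6, 81.4 and 92.4 CPM, which was at least 469-fold higher than in OE33 when 3 counts per library were taken as the floor (edgeR, adjusted p = 5e-10). VIM (chr10:17228259-17237593) was also near the floor in OE33, at 0.155, 2.58 and 1.23 CPM, against 89.8, 199 and 209 CPM in SK-GT-4. The VIM difference was -6.96 ± 0.74 on the log2 scale, OE33 minus SK-GT-4 (edgeR, adjusted p = 6.8e-08), and the means were 125-fold apart.

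The matrix genes behaved otherwise. FN1 (chr2:215360440-215436172, minus strand) was at 302, 199 and 757 CPM in OE33 and at 230, 382 and 289 CPM in SK-GT-4, and TGFBI (chr5:136028895-136063818) was at 345, 478 and 735 CPM against 569, 703 and 742 CPM. The lines overlapped for both genes. Their log2 differences of 0.48 ± 0.76 (adjusted p = 0.67) and -0.37 ± 0.48 (adjusted p = 0.60) in the same edgeR test did not pass the threshold, which was an adjusted p of at most 0.01.

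Among the transcription factors, ZEB1 (chr10:31318495-31529814), a repressor of epithelial genes, was at 0.412, 0.619 and 0.718 CPM in OE33 and at 10.3, 7.90 and 11.4 CPM in SK-GT-4. It differed by -4.07 ± 0.46 on the log2 scale (edgeR, adjusted p = 1.9e-07). SNAI2 (chr8:48917604-48921740, minus strand) was at 15.8, 26.6 and 8.67 CPM in OE33 and at 51.7, 26.8 and 41.6 CPM in SK-GT-4, so that the closest libraries of the lines were almost level. SNAI1 (chr20:49982999-49988886) was at 2.78, 1.70 and 3.49 CPM in OE33 and at 14.9, 2.38 and 3.49 CPM in SK-GT-4, where the batch 1 library alone was high. Neither SNAI2 (-1.24 ± 0.41, adjusted p = 0.022) nor SNAI1 (-1.39 ± 0.58, adjusted p = 0.072) passed the edgeR test.

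In all, 5 of the 9 genes differed between the lines in Cas9 DMSO cells, where 22% of all 25181 genes tested did. The same 5 genes passed in Cas9 cells under MPS1i (23.5% of all genes). The median of all genes lay at -0.14 in the first of these comparisons and at -0.15 in cGAS KO cells under DMSO. Over the genes with a mean of at least 1 CPM, 13138 and 13215 of them, it lay at 0.03 and 0.01.

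Dividing by the gene length in the deposited table (RPKM, computed here from the counts) allowed the levels of different genes to be set in order. In OE33 Cas9 DMSO cells, EPCAM led with 282 ± 69.1 RPKM (SD, n = 3), followed by CDH1 at 77.9 ± 29.2 and TGFBI at 66.5 ± 25.4 RPKM, which overlapped. FN1 (24.2 RPKM), SNAI2 (5.02 RPKM) and SNAI1 (1.58 RPKM) came next, and VIM (0.256 RPKM), ZEB1 (0.0674 RPKM) and CDH2 (0 RPKM) were last. In SK-GT-4 Cas9 DMSO cells the order opened with TGFBI at 86.0 ± 11.6 RPKM, above VIM at 32.1 RPKM. From VIM downwards, each gene overlapped with the next in the order EPCAM (18.6 RPKM), FN1 (17.3 RPKM), CDH2 (14.6 RPKM), SNAI2 (11.8 RPKM), SNAI1 (4.10 RPKM), CDH1 (1.5 RPKM) and ZEB1 (1.14 RPKM). EPCAM was thus measured beside VIM and CDH2 in these libraries, at an RPKM level that the replicate spread did not separate from theirs. Bulk RNA does not show whether the same cells expressed them.

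VIM, CDH2 and ZEB1 were the 3 genes that passed the test as higher in SK-GT-4 than in OE33. Their promoters are shown for this shared direction between the lines, which does not show a shared regulation. Between the SK-GT-4 clones under DMSO, CDH2 (0.84, cGAS KO minus Cas9) went the other way from VIM (-1.84) and ZEB1 (-1.58). None of these differences between the clones passed. RefSeq (GRCh38.p14) promoter windows were matched for 5 of the 9 symbols, which were VIM, CDH2, ZEB1, FN1 and TGFBI. The 250 bases before a transcription start are given 5′ to 3′, and positions count back from the start, with -1 as the last base printed. Capitals mark a GC box (GGGCGG or its reverse complement CCGCCC) in VIM and CDH2, and the E-box (CAGGTG or CACCTG, which ZEB and SNAI proteins are known to bind) in ZEB1. VIM is the window chr10:17227991-17228240 on the plus strand, CDH2 the window chr18:28177131-28177380 on the minus strand, and ZEB1 the window chr10:31318966-31319215 on the plus strand.
VIM: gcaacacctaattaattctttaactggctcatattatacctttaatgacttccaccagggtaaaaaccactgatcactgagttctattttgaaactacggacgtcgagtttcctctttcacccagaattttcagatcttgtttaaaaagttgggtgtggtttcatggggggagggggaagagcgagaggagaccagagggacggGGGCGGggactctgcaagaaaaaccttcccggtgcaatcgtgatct
CDH2: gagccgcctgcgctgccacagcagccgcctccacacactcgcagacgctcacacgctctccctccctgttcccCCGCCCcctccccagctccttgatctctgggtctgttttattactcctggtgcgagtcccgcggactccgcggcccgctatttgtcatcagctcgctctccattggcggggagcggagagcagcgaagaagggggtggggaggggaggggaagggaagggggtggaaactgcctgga
ZEB1: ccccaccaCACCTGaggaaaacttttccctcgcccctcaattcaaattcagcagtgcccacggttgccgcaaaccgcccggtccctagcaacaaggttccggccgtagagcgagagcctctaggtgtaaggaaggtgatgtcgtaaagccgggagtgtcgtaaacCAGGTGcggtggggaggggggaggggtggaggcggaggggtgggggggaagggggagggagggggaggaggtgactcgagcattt
Both strands were searched. The VIM window held 1 GC box, at -46, and the CDH2 window 1, at -177. The ZEB1 window shown held 2 E-boxes, at -242 and -85, the most of its 7 listed starts. It also held 1 GC box, at -177, which is not marked. ZEB1 had an E-box at 2 of the 7 starts. Neither start of CDH2 held an E-box in its window, nor did VIM, FN1 or TGFBI. The FN1 window had 6 GC boxes and the TGFBI window 3. Over all 35116 RefSeq promoter windows of this length, 17.5% held an E-box and 42.6% a GC box, so that these matches are common, and they describe the sequence only. The GC content was 46.0% for VIM and 66.0% for the CDH2 window shown, against 76.4% for FN1 and 72.8% for TGFBI. The window of the other CDH2 start had 42.0% and no GC box.

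The second comparison asks how the cGAS KO clone differed from the Cas9 clone of the same line. In SK-GT-4, CDH1 and EPCAM were higher in the cGAS KO clone under DMSO, and they were the 2 of 9 genes that passed the test, where 1.76% of all 22782 genes did (1.1% higher). At an adjusted p of at most 0.05, SNAI1 joined them (4.89% of all genes). CDH1 was at 20.5, 175 and 203 CPM in the cGAS KO libraries of batches 1 to 3, against 3.79, 14.3 and 9.66 CPM in Cas9. Every cGAS KO library was above every Cas9 library, though batch 1 was far below the other two. The log2 ratio within batches was 2.43, 3.61 and 4.39, and the fitted difference was 3.53 ± 0.47 (edgeR, adjusted p = 0.0020), with means 14.3-fold apart. EPCAM was at 410, 206 and 282 CPM against 48.1, 47.3 and 45.1 CPM, with log2 ratios of 3.09, 2.12 and 2.64 within batches. Its difference was 2.71 ± 0.41 (edgeR, adjusted p = 0.0039), a 6.39-fold ratio of the means. At 133 ± 98.1 CPM (SD, n = 3), CDH1 of the SK-GT-4 cGAS KO clone remained under the 566 ± 301 CPM of OE33 cGAS KO cells.

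**Figure D1:**
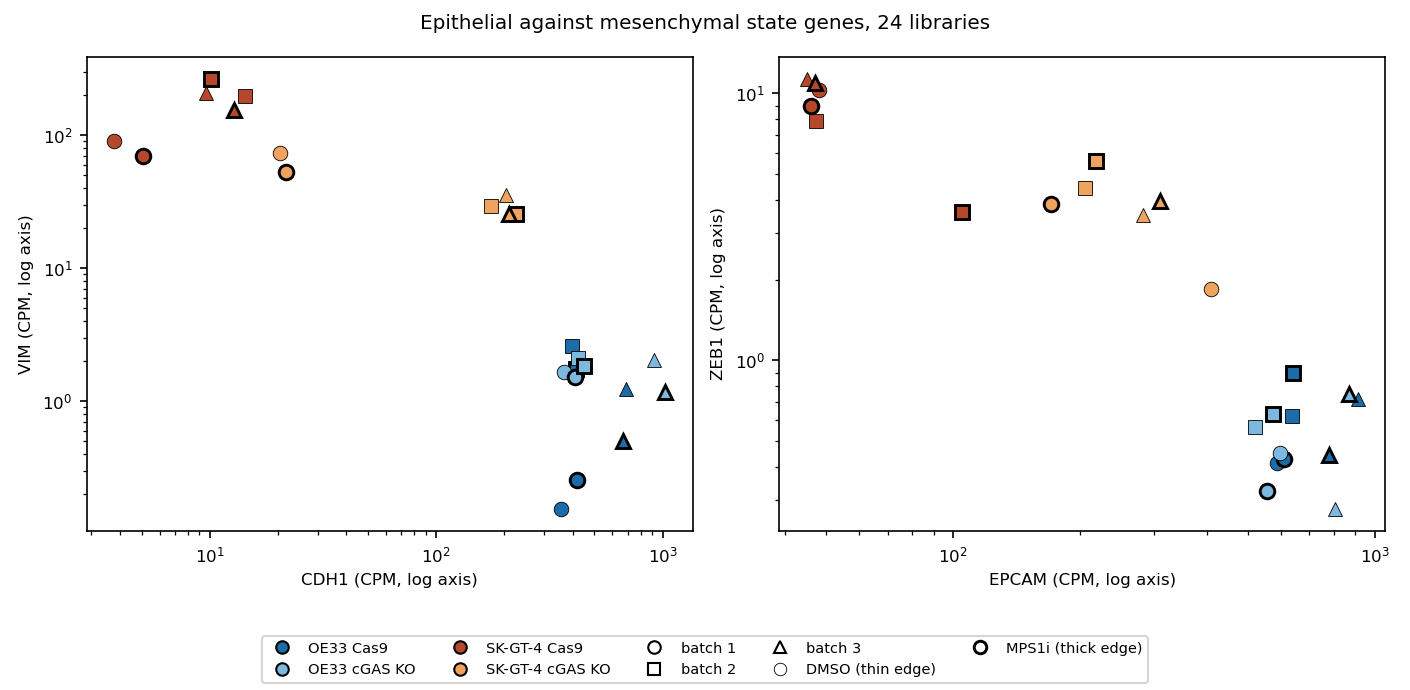
CDH1 against VIM (left panel) and EPCAM against ZEB1 (right panel), in CPM on log axes. Each panel has 1 point for each of the 24 libraries, by cell line, genotype and treatment. The OE33 libraries sit at 356 CPM of CDH1 or more and under 3 CPM of VIM, and the SK-GT-4 cGAS KO libraries lie between them and the SK-GT-4 Cas9 libraries in CDH1.

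Under MPS1i, the SK-GT-4 clones differed alike for CDH1. It was at 21.8, 226 and 210 CPM in cGAS KO and at 5.05, 10.1 and 12.8 CPM in Cas9, a difference of 3.54 ± 0.48 (edgeR, adjusted p = 0.0023). CDH1 was then the 1 gene of 9 that passed (1.41% of all genes). EPCAM was at 171, 218 and 310 CPM against 46.1, 105 and 47.2 CPM. The groups again did not overlap, but the difference of 1.84 ± 0.40 missed the threshold (edgeR, adjusted p = 0.027), though it made 2 of 9 at an adjusted p of at most 0.05 (4.47% of all genes). Without the Cas9 MPS1i library of batch 2, which had the 105 CPM, EPCAM passed at 2.43 (edgeR, adjusted p = 0.0010).

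Whether CDH1 and EPCAM passed depended on batch 3 above all, while both were higher in the cGAS KO clone in every batch. Without batch 3, CDH1 differed by 3.08 under DMSO (edgeR, adjusted p = 0.22), and 0 of 9 genes and 0 of all genes passed. The loss of calls was thus not particular to these genes. Without batch 2 the difference of CDH1 was 3.48 (edgeR, adjusted p = 0.011), and without batch 1 it was 4.01 (edgeR, adjusted p = 0.00067). EPCAM was at 2.43 without batch 1 and did not pass (edgeR, adjusted p = 0.017). Without the batch block, CDH1 differed by 3.85 (edgeR, adjusted p = 0.029) under DMSO and by 4.03 (adjusted p = 0.030) under MPS1i, while EPCAM passed under DMSO at 2.70 (adjusted p = 0.0025).

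The mesenchymal genes of SK-GT-4 did not move as a group. VIM was at 73.5, 29.3 and 35.5 CPM in the cGAS KO clone and at 89.8, 199 and 209 CPM in the Cas9 clone under DMSO. The ranges did not overlap, but the log2 ratio was -0.29 in batch 1 and -2.76 and -2.56 in the others, and the fitted -1.84 ± 0.58 did not pass (edgeR, adjusted p = 0.11). Without batch 1, VIM passed at -2.63 (edgeR, adjusted p = 0.0046) under DMSO and at -3.04 (adjusted p = 0.0029) under MPS1i. CDH2 was at 52.8, 197 and 162 CPM in cGAS KO and at 43.6, 81.4 and 92.4 CPM in Cas9, so that it was higher in the clone that also had more CDH1. Its difference of 0.84 ± 0.29 (edgeR, adjusted p = 0.14) did not pass. FN1 ranged from 23.3 to 408 CPM among the cGAS KO libraries, with the lowest value in batch 1, and its difference of -1.13 ± 0.65 did not pass (edgeR, adjusted p = 0.42). TGFBI was likewise lowest in batch 1, at 246 CPM against 1112 CPM in both other batches, with a difference of 0.12 ± 0.42 (edgeR, adjusted p = 0.92).

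Of the repressors, ZEB1 was at 1.84, 4.41 and 3.5 CPM in SK-GT-4 cGAS KO DMSO cells and at 10.3, 7.90 and 11.4 CPM in Cas9 cells, without overlap. Its difference of -1.58 ± 0.43 did not pass (edgeR, adjusted p = 0.061). SNAI1 was at 1.45, 1.44 and 0.809 CPM against 14.9, 2.38 and 3.49 CPM, also without overlap, with a difference of -2.05 ± 0.50 (edgeR, adjusted p = 0.040). DESeq2's Wald test placed both past the threshold, SNAI1 at -2.03 (adjusted p = 0.0019) and ZEB1 at -1.56 (adjusted p = 0.0062). SNAI2 was at 29.6, 36.9 and 54.7 CPM against 51.7, 26.8 and 41.6 CPM and overlapped, with a difference of 0.09 ± 0.29. Under MPS1i the differences were -0.79 ± 0.42 for ZEB1 (edgeR, adjusted p = 0.35), -1.40 ± 0.49 for SNAI1 (adjusted p = 0.15) and -2.25 ± 0.59 for VIM (adjusted p = 0.057).

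Per length, the order of the genes in the SK-GT-4 cGAS KO clone under DMSO was headed by EPCAM at 119 ± 40.9 RPKM (SD, n = 3), TGFBI at 105 ± 64 RPKM, CDH2 at 27.7 ± 15.2 RPKM and CDH1 at 21.5 ± 15.9 RPKM, each overlapping with the next. VIM stood at 8.94 RPKM, and SNAI1 (0.731 RPKM) and ZEB1 (0.376 RPKM) closed the order.

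In OE33, 0 of the 8 genes that could be tested passed between the clones under DMSO (edgeR, where 1.47% of all 20426 genes did) or under MPS1i (2.84%). At an unadjusted p under 0.05 the counts were 0 (17.5% of all genes) and 2 (21.3%). CDH2 was left out for its 2 counts. CDH1 was at 365, 421 and 912 CPM in cGAS KO and at 356, 399 and 688 CPM in Cas9 under DMSO, a difference of 0.16 ± 0.13 (edgeR, adjusted p = 0.61). EPCAM differed by -0.17 ± 0.12 (adjusted p = 0.51). For CDH1, EPCAM and FN1 of OE33 the batches were the larger source of spread, since each was highest in batch 3 in each of the 4 groups.

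TGFBI was the OE33 gene nearest to the threshold. Under MPS1i it was at 716, 719 and 1122 CPM in cGAS KO cells and at 335, 414 and 610 CPM in Cas9 cells, without overlap, with a difference of 0.93 ± 0.26 (edgeR, adjusted p = 0.040), the 1 of 8 at an adjusted p of at most 0.05 (7.98% of all genes). Under DMSO it was at 772, 247 and 1152 CPM against 345, 478 and 735 CPM, where the 247 CPM belonged to the batch 2 library labelled OE33 cGAS KO under DMSO. With that library the DMSO difference was 0.37 ± 0.27 (edgeR, adjusted p = 0.53), and without it 0.85 (adjusted p = 0.00036). Without the whole of batch 2, TGFBI (0.90, adjusted p = 0.0075) and SNAI2 (1.01, adjusted p = 0.0039) both passed. VIM under MPS1i was between 1.18 and 1.84 CPM in cGAS KO and between 0.257 and 1.74 CPM in Cas9, an overlap, with a difference of 1.14 ± 0.52 (edgeR, adjusted p = 0.22).

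The difference between the lines in the effect of genotype was tested directly, in a fit of all 24 libraries with a batch block in each line. Under DMSO, CDH1 (-3.36 ± 0.47, OE33 minus SK-GT-4; edgeR, adjusted p = 0.00021) and EPCAM (-2.86 ± 0.43; adjusted p = 0.00035) passed, which makes 2 of 9 where 1.66% of all genes did. CDH2 is among the 9 but could not be judged here, since it had 0 counts in every OE33 DMSO library. VIM differed by 2.64 ± 0.82 (adjusted p = 0.094) and SNAI1 by 1.98 ± 0.60 (adjusted p = 0.083), and neither passed. Without batch 3, CDH1 (-3.02, adjusted p = 0.12) and EPCAM (-2.86, adjusted p = 0.090) did not pass either. In cGAS KO cells under DMSO, the lines differed in 3 of the 9 genes (21.6% of all genes), CDH2, VIM (-4.60 ± 0.67, OE33 minus SK-GT-4; edgeR, adjusted p = 7.6e-06) and ZEB1 (-2.90 ± 0.46; adjusted p = 2.7e-05). CDH1 (2.09 ± 0.69; adjusted p = 0.023) and EPCAM (1.07 ± 0.33; adjusted p = 0.014), which had passed between the Cas9 clones, did not, but both did at an adjusted p of at most 0.05 (31.8% of all genes). With a batch block shared by both lines, CDH1 passed (2.34; edgeR, adjusted p = 0.00067), and without a filter both genes did. EPCAM also passed without the batch 1 library of SK-GT-4 cGAS KO cells under DMSO (1.39; edgeR, adjusted p = 0.0033). CDH2 was at least 960-fold higher in SK-GT-4. Under MPS1i EPCAM passed too (1.56; adjusted p = 0.00077), which made 4 of 9 (19.1% of all genes), and CDH1 (2.07; adjusted p = 0.027) did so in the fit with the shared block (2.33; adjusted p = 0.00079).

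The clones may differ in copy number, which RNA counts do not measure, so the neighbours of each gene were read as well. Among genes starting within 10 Mb on the same chromosome and reaching a mean of 1 CPM, the median log2 difference between SK-GT-4 cGAS KO and Cas9 under DMSO was -0.04 for the 126 neighbours of CDH1 and 0.40 for the 71 neighbours of EPCAM, against 0.01 over all 13318 such genes. It was -0.01 for the 65 neighbours of VIM, while chromosome 10 as a whole stood at -0.39. For SNAI1 it was -0.21 over 105 neighbours, with chromosome 20 at -0.35. In OE33 the 109 neighbours of TGFBI stood at 0.03. The part of these shifts in the results was not tested.

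The third comparison asks whether MPS1i moved these genes. None of them passed the threshold in any clone. Hardly any gene of the whole table did so in the main fit, so that this says little about the 9 genes. The study, with its own batch correction and DESeq2 at an adjusted p of at most 0.01, reported many more genes up-regulated by MPS1i in Cas9 cells of both lines. The log2 differences between MPS1i and DMSO were between -0.70 and 0.47, with standard errors of 0.12 to 0.62, over the 8 genes tested in OE33 and the 9 in SK-GT-4, and none had an unadjusted p under 0.05 by edgeR. By DESeq2 none passed either. Over all genes, edgeR called 1 gene in OE33 Cas9 cells (0.0049%) and 0 in each of the other 3 clones, while 1420 genes (6.95%) had an unadjusted p under 0.05 in OE33 Cas9 cells and as many in OE33 cGAS KO cells, and 566 (2.48%) and 317 (1.39%) did in the Cas9 and the cGAS KO clone of SK-GT-4. With a block for each genotype and batch, which pairs the treated and untreated libraries, edgeR called 93 genes (0.455%) in OE33 Cas9 and 101 (0.494%) in OE33 cGAS KO cells, none of them among the 9, and 0 in either clone of SK-GT-4. The OE33 counts were 96 and 152 without a filter, and 22 and 6 by DESeq2. CDH1 of OE33 Cas9 cells was at 420, 414 and 666 CPM under MPS1i, against 356, 399 and 688 CPM under DMSO, a difference of 0.07 ± 0.13. In SK-GT-4 Cas9 cells, where the fit was less precise, it was 0.16 ± 0.44, so that a change of moderate size was not detectable there. The largest value among the genes was that of VIM in OE33 Cas9 cells, -0.70 ± 0.53, at levels under 3 CPM. EPCAM of SK-GT-4 differed by 0.47 ± 0.39 in Cas9 and by -0.41 ± 0.39 in cGAS KO cells. The difference between the genotypes in the effect of MPS1i did not pass for any gene in either line, nor did the difference between the lines in Cas9 cells.

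Other genes of the same programs were read from lists of 30 epithelial genes, 30 mesenchymal genes, 12 transcription factors of the epithelial-mesenchymal transition and 27 genes of the TGF-beta pathway. Between the lines in Cas9 DMSO cells, 26 of the 30 epithelial genes were higher in OE33 and none lower (9.63% and 12.4% of all genes), with a median log2 difference of 3.56. RAB25, a trafficking GTPase, averaged 109 CPM in OE33 with 0 counts in the SK-GT-4 libraries, at least 836-fold higher. OVOL1, a transcription factor that maintains the epithelial state, averaged 32.5 CPM with 0 counts in SK-GT-4, at least 250-fold higher. The protease PRSS8 (9.44) and the tight junction gene CLDN4 (8.13) followed on the log2 scale. Of the mesenchymal list, 20 of the 29 tested genes were lower in OE33 and none higher, with a median of -4.17, or -2.90 with genes at 0 in 1 line set to their bound. Without batch 3 there were 13. The collagen VI genes COL6A1 and COL6A2 averaged 193 and 43.9 CPM in SK-GT-4 with 0 counts in OE33, at least 1251-fold and 285-fold higher, and moesin (MSN, -12.01) and FSTL1 (-9.58) were close to the floor in OE33.

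The transcription factors were divided. FOXQ1 (3.55) and FOXC2 (2.66) were higher in OE33, while PRRX1 and ZEB2 had 0 counts in OE33 Cas9 DMSO cells and averaged 5.91 and 1.58 CPM in SK-GT-4. TCF4, named after its values were seen since it averaged 0.858 CPM in SK-GT-4, was the third that was lower. In the TGF-beta list, 4 genes were higher in OE33 and 6 lower of 27. The integrin subunit ITGB6 (3.46) and the activin subunit INHBA (1.45) were among the former, and CCN2 (-6.09), LTBP1 (-3.09), ID3 (-3.08) and THBS1 (-3.06) among the latter. Without batch 3 no gene of this list passed as higher, without batch 2 only 1 did, with 3 lower, and without batch 1 there were 2.

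In SK-GT-4 under DMSO, 8 of the 30 epithelial genes were higher in the cGAS KO clone than in the Cas9 clone and none were lower (1.1% and 0.658% of all genes). The median log2 difference of the list was 1.55, or 1.54 with genes at 0 in 1 clone at their bound, against 0.03 over all genes. MAL2, a membrane protein of epithelial apical transport, averaged 265 CPM against 1.86 CPM, a difference of 7.17 ± 0.28 (edgeR, adjusted p = 5.3e-07). ESRP1, a splicing regulator of epithelial cells, averaged 77.2 CPM against 1.69 CPM, a difference of 5.50 ± 0.27 (edgeR, adjusted p = 2.6e-06). PRSS8 (5.23) and CLDN4 (4.55) came next. Another 2 epithelial genes are given here after their values were seen. GRHL2, a transcription factor, averaged 41.2 CPM in OE33 Cas9 DMSO cells and had at most 7 counts in any SK-GT-4 library of either genotype. RAB25 averaged 0.510 CPM in the SK-GT-4 cGAS KO clone under DMSO, with 0 counts in the Cas9 clone.

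The count of 8 rested on the batches and the model. It was 0 without batch 3, 5 without batch 2, 5 without the batch block, 12 without batch 1, 14 without the Cas9 MPS1i library of batch 2 and 16 by DESeq2. Without both that library and the cGAS KO DMSO library of batch 1, a choice made after seeing the data, it was 26. Of all genes, 0.838% passed without the batch block, 1.22% without batch 1 and 6.56% by DESeq2, against 1.76% in the main fit. More of all genes also passed without that Cas9 library and without both, as the closing section gives. Under MPS1i the count was 9 higher and none lower (0.812% and 0.597% of all genes), led again by MAL2 (6.49), ESRP1 (4.87), CLDN4 (4.13) and PRSS8 (3.90). It was 0 without batch 3, 4 without batch 2, 3 without the batch block, 16 by DESeq2, 16 without the cGAS KO DMSO library of batch 1 and 25 without both libraries. By DESeq2, 6.36% of all genes passed under MPS1i, against 1.41% in the main fit. Of the mesenchymal list, TAGLN, an actin-binding protein of smooth muscle, was higher in the cGAS KO clone under DMSO (1.66) and under MPS1i (1.51), and THY1 was lower under MPS1i (-5.16), at a mean of 0.107 CPM against 4.14 CPM. The median of the list was -0.48 under DMSO. TAGLN did not pass in any fit without a batch or without the batch block, and THY1 did not without batch 2, batch 3 or with edgeR's own filter. The mesenchymal genes that were lower, 0 under DMSO and 1 under MPS1i, became 4 and 4 by DESeq2, and 6 and 9 without both libraries. None of the 9 transcription factors tested passed by edgeR with all libraries in either treatment, while 2 were lower in each treatment without both libraries, and DESeq2 placed 2 lower under DMSO and 1 under MPS1i. BAMBI, a decoy receptor that dampens TGF-beta signalling, was higher (2.15 under DMSO and 1.56 under MPS1i), and INHBA was lower (-3.25 and -2.70), as the only genes of the TGF-beta list that passed. Neither passed without batch 3, where BAMBI still differed by 2.03 and INHBA by -3.28 under DMSO. When a batch, a single library or both libraries were left out, the DMSO differences lay between 2.03 and 2.40 for BAMBI and between -3.28 and -3.19 for INHBA. Under MPS1i BAMBI did not pass in any fit without a batch or without the batch block, at 1.34 to 1.78. Without both libraries, 5 genes of the list were higher under DMSO, and 3 were higher and 6 lower under MPS1i. All list counts without both libraries have to be read against the far larger number of all genes that passed in that fit under DMSO. For MPS1i that number is not given here, and no result about the lists is drawn from these counts.

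In OE33 under DMSO, 0 of the 30 epithelial genes differed between the clones by edgeR, while 1 was higher by DESeq2 (3.61% of all genes passed). The genes of the mesenchymal list, 22 of them tested, that were higher in cGAS KO included NT5E (1.09), and THBS1 (1.76) was the 1 gene of the TGF-beta list that was (1% of all genes were higher and 0.465% lower). THBS1 averaged 251 CPM in OE33 cGAS KO and 70.4 CPM in OE33 Cas9 cells. Under MPS1i, where 1.88% of all genes were higher and 0.955% lower, LGALS1 (2.16), the receptor kinase AXL (1.77), EMP3 (1.56) and NT5E (1.08) were higher and the integrin ITGA5 (-0.84) was lower, while CLDN3 (0.83) was the 1 epithelial gene that was higher and FOXQ1 (0.69) the 1 transcription factor. THBS1 (1.95), TGFB2 (1.28), TGFB1 (0.71) and LTBP3 (0.68) were higher in the TGF-beta list. Without the batch 2 library labelled OE33 cGAS KO under DMSO, 6 mesenchymal and 7 TGF-beta genes were higher under DMSO. In that fit, 5 epithelial, 6 mesenchymal and 11 TGF-beta genes and 2 transcription factors were higher under MPS1i. It called 4.77% of all genes under DMSO and 6.69% under MPS1i, against 1.47% and 2.84% with that library. DESeq2 placed 5 epithelial and 6 TGF-beta genes higher under MPS1i (5.8% of all genes passed), and without batch 3 the counts were 0 and 1 (0.0966%). Without the batch block, or without batch 3, no gene of the mesenchymal list was higher in either treatment. No gene of the 4 lists passed between MPS1i and DMSO in any clone by edgeR with the batch terms of each line.

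Last, the genes whose levels across the 24 libraries were most like those of each member were listed, with the mean of each line taken out first and genes with a mean of at least 5 CPM considered. These correlations describe libraries that share clones and batches, and carry no test. CDH1 was nearest to MARVELD2 (Pearson r = 0.984), a tight junction gene, and to PCDH1 (0.976) and SYTL2 (0.972). EPCAM was nearest to CDC42EP5 (0.958), CD81 (0.944) and PODXL2 (0.937), and CDH2 to EFEMP1 (0.927), CDH6 (0.922) and CADM2 (0.907). For VIM, the values were lower, with CENPV (0.805), AK5 (0.803) and C11orf80 (0.787) at the top. FN1 lay closest to PLPPR2 (0.963), TGFBI to EPHB2 (0.926), ZEB1 to VGLL4 (0.877), SNAI1 to SOWAHC (0.872) and SNAI2 to SH3GLB1 (0.844).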

How the data were processed

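Poly(A) RNA of 24 libraries (2 cell lines, 2 genotypes and 2 treatments, with 3 batches of each) was sequenced by the authors as paired-end 150-bp reads, which they mapped to GRCh38 with HISAT2 2.0.5 and counted per gene with featureCounts 1.5.0. The deposited values are raw counts for 58735 genes, neither normalized nor batch-corrected. The annotation release, the strand setting and the treatment of reads with several matches were not given in the sources used here, so overlapping and near-identical genes are uncertain. The 276 library pairs held no duplicates.

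The filter kept genes whose counts summed to 5 or more and were above 0 in 4 or more libraries of a fit. In R 4.3.3, edgeR 4.0.16 (TMM factors, quasi-likelihood test, Benjamini-Hochberg adjustment over all genes, calls at an adjusted p of at most 0.01) was fitted to the 12 libraries of each line with group and batch terms. For the levels of the lines, all 24 libraries entered with group terms alone, and for the difference of effects with a batch block per line. Batch numbers are stated in the labels, and deviations of same-numbered libraries correlated across genes with a median of 0.512 in OE33 (0.063 to 0.761) and 0.394 in SK-GT-4 (-0.662 to 0.713). CPM and RPKM were computed from the counts with the deposited gene lengths. A gene at 0 in a whole group was given a bound from 3 counts per library. On simulated data, 200 genes with a mean of at least 5 CPM were changed 4-fold. Of these, 200 were recovered for genotype in OE33 (19709 genes), 159 in SK-GT-4 (21972 genes) and 159 between the lines (24568 genes), with 21, 5 and 2 others called. The 21 others in OE33 were more than an adjusted p of at most 0.01 should allow. Genotype calls in OE33 may thus be less certain than their adjusted p-values. The effect of MPS1i was not simulated.

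The 9 members are always named. In each list and direction, up to 4 called genes with the largest log2 difference and a mean of at least 1 CPM are named, besides those said to be named after their values were seen, and per member the genes most like it. The results flagged for a closer look are named without this limit of 4. 1 gene of the lists is not reported here by name and is not drawn, but stays in the counts and medians. The members and lists were chosen with earlier results of these data known. Alternatives were edgeR's own filter, no filter, DESeq2 size factors, DESeq2 1.42.0, no block, other blocks, a threshold of 0.05, and leaving out batches or single libraries. The fit without both SK-GT-4 libraries that stood apart was added after seeing the data.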

Additional observations from a re-analysis of the deposited data

Results flagged for a closer look

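Each result here was marked because the difference between the cGAS KO and the Cas9 clone under DMSO was not the same in OE33 and in SK-GT-4, by an interaction term in edgeR's fit of all 24 libraries. Values are log2 differences of the genotype effect, OE33 minus SK-GT-4. CDH1 was at -3.36 (adjusted p = 0.00021) and EPCAM at -2.86 (adjusted p = 0.00035). In the epithelial list, the cell surface and junction genes were CDH3 at -1.65, CLDN4 at -4.18, OCLN at -2.18, TJP3 at -2.16, MARVELD2 at -1.61, PKP3 at -1.30 and JUP at -1.77, the membrane and protease genes were MAL2 at -7.04, ST14 at -3.70 and PRSS8 at -5.10, and the splicing regulator ESRP1 was at -5.73. RAB25 was at -6.79, a fitted value that is no bound, since the gene had 0 counts in the SK-GT-4 Cas9 DMSO libraries.

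In the mesenchymal list NT5E was at 1.70, and in the TGF-beta list ITGB6 was at -2.23, BAMBI at -2.35 and INHBA at 3.19. Of all 25181 genes tested, 1.66% passed.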

How the results depend on the processing

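No result reversed its direction past the threshold. Of the counts of the 9 genes called, 168 recomputed values were within 1.5 times the main one and 26 were not. The 168 include counts that were 0 in the main fit and stayed 0, among them all those for MPS1i against DMSO. They are thus no measure of how stable the other counts were. For SK-GT-4 cGAS KO against Cas9 under DMSO (2 genes), the count was 4 by DESeq2, 1 without the replicate block, and 0 to 6 when a batch or library was left out. Under MPS1i (1 gene) it was 2 at a threshold of 0.05, 2 without a filter, 3 by DESeq2, 0 without the replicate block, and 0 to 7 when a batch or library was left out. Both ranges include the fit described next. Without the SK-GT-4 libraries of Cas9 MPS1i in batch 2 and of cGAS KO DMSO in batch 1, a choice made after seeing the data, 6 and 7 genes passed, but the biological coefficient of variation of the fit fell from 34.0% to 16%, and 2964 genes in all passed under DMSO, against 400. For OE33 cGAS KO against Cas9 (0 genes), leaving out a batch or library gave 0 to 2 under DMSO and 0 to 1 under MPS1i, where a threshold of 0.05 and no filter each gave 1. Between the lines in cGAS KO cells, DMSO (3 genes) gave 5 at a threshold of 0.05 and 7 without a filter, and MPS1i (4 genes) gave 7 without a filter. For the difference of the genotype effect (2 genes), the count was 1 without the replicate block and 0 to 3 when a batch or library was left out. That range again includes the fit without both SK-GT-4 libraries. The counts for MPS1i against DMSO stayed at 0 under every alternative run. For the line levels, a replicate block shared by both lines was the blocked fit, and it brought CDH1 in cGAS KO cells past the threshold (2.34 under DMSO and 2.33 under MPS1i).

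Calls over all genes moved more. Under DMSO, SK-GT-4 went from 400 to 1495 by DESeq2, 647 without a filter, 191 without the replicate block, 211 to 260 without batch 2 or 1, 0 without batch 3 and 1022 without the Cas9 MPS1i library of batch 2. OE33 went from 300 to 737 by DESeq2, 1046 without a filter, 189 with edgeR's own filter, 15 without the replicate block, 95 without batch 1, 11 without batch 3 and 962 without the batch 2 library labelled OE33 cGAS KO under DMSO. For MPS1i against DMSO, the Cas9 and cGAS KO clones of OE33 went from 1 and 0 to 93 and 101 with a replicate block per genotype and batch, and those of SK-GT-4 from 0 and 0 to 23 and 4 without both libraries named above. The cause was not tested. Among member results with an unadjusted p of at least 0.05, 135 of 1043 recomputed values changed sign. With 3 batches of 1 clone, the spread in SK-GT-4 limits what could be detected, since 79.5% of simulated 4-fold changes were recovered there for genotype under DMSO. Genes at levels lower than those simulated were not covered by that share.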
